A study of Mus musculus with 20 samples.

Results

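The Cyp3a genes of the mouse encode cytochrome P450 enzymes of the liver and the intestine. Of the 55401 genes in the deposited count table, 9 were taken by their symbol: Cyp3a11, Cyp3a13, Cyp3a16, Cyp3a25, Cyp3a41a, Cyp3a41b, Cyp3a44, Cyp3a57, and Cyp3a59. The family was selected on measured values, which were its levels in the liver and the small intestine, its difference between segments of the intestine, and the higher level of Cyp3a41a in KO than in WT liver. These contrasts are therefore given as descriptions. Where fits across all genes made calls in those libraries, the counts are set beside the share of all genes called, and nothing is read from them.

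RNA-seq was performed on liver, small intestine, spleen, heart, and kidney from WT mice and Nsun6-KO mice, with 2 libraries for each tissue and genotype and 20 in all. Nsun6 is an enzyme that places 5-methylcytosine on RNA. In the KO strain, exons 3 and 4 of Nsun6 had been deleted with CRISPR/Cas9 in fertilized C57BL/6J eggs and homozygous mice were bred from heterozygous ones, so the deletion was carried by all tissues and was not limited to a cell type. All mice were female and 8 weeks old according to the methods, and the number of founder animals behind the strain is not given in the sources used here. The libraries held from 15897446 to 44508197 counts. The paper describes the libraries of a group as biological replicates, and the labels do not name the animal behind each. Levels are given as CPM, which is counts divided by library size after TMM scaling of all 20 libraries, or as TPM. TPM also divides by the length of the exons and was used to order the genes by level. Shares, ratios, and sums of Cyp3a genes that are given in counts or CPM take no account of length.

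Nsun6 itself was counted in all libraries. Its counts take in every exon of the gene, so they do not check the deletion of exons 3 and 4. In the liver, Nsun6 stood at 7.23 and 4.79 CPM in WT and 3.95 and 4.54 CPM in KO. The KO libraries were both below the WT libraries in the liver, the kidney, and the heart, and the genotypes overlapped in the small intestine and the spleen.

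Enzymes of the Cyp3a family oxidize steroids, bile acids, and a wide range of drugs, with electrons passed on by the reductase Por. Their genes are under the control of the nuclear receptors PXR (Nr1i2) and CAR (Nr1i3), which sense foreign compounds, and of hepatocyte factors such as Hnf4a. Cyp3a11 is known as the main Cyp3a enzyme of the adult mouse liver, Cyp3a16 as a form of the fetal and newborn liver, and Cyp3a41 and Cyp3a44 as forms that are higher in female than in male liver under the pattern of growth hormone release.

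All 9 genes lie on chromosome 5 of GRCm38. Cyp3a13 (minus strand, 137892932 to 137921619) stands alone, 7423.7 kb from the others. The other 8 form a cluster of 768 kb, from 145345279 to 146113287, in the order Cyp3a57, Cyp3a16, Cyp3a41b, Cyp3a41a, Cyp3a44, Cyp3a11, Cyp3a25, and Cyp3a59. Cyp3a57 and Cyp3a59, at the ends, are on the plus strand and the 6 genes between them on the minus strand.

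By sequence, the genes fell into groups. The longest coding transcripts of Cyp3a16, Cyp3a41a, Cyp3a41b, and Cyp3a44, the first group, were between 92.0% and 99.9% identical to one another. Cyp3a11 was 91.6% to 94.5% identical to them. The transcripts do not set Cyp3a11 apart from the first group. Cyp3a11 was 94.5% identical to Cyp3a41a, and Cyp3a16 was 92.2% identical to it. Cyp3a25, Cyp3a57, and Cyp3a59 were 92.9% to 97.0% identical to one another and at most 74.1% identical to the genes of the first group. Cyp3a13 was 71.7% to 73.3% identical to the other 8. All 9 genes were found in the promoters of RefSeq (250 bases before and 50 bases after each start, GRCm38.p6). The promoters, unlike the transcripts, separated Cyp3a11 from the first 4 genes. Promoters of the first 4 genes were 94.3% to 99.7% identical, whereas that of Cyp3a11 was 78.7% to 82.2% identical to them. The promoters of Cyp3a25, Cyp3a57, and Cyp3a59 were 90.9% to 96.3% identical.

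The promoters of Cyp3a41a (chr5:145720087-145720386, minus strand), Cyp3a44 (chr5:145805825-145806124, minus strand), Cyp3a11 (chr5:145879805-145880104, minus strand), Cyp3a59 (chr5:146079008-146079307, plus strand), and Cyp3a13 (chr5:137921570-137921869, minus strand) are shown because they stand for the groups whose levels are described. Each is written 5′ to 3′, and capitals mark the letters TATAAA.
Cyp3a41a: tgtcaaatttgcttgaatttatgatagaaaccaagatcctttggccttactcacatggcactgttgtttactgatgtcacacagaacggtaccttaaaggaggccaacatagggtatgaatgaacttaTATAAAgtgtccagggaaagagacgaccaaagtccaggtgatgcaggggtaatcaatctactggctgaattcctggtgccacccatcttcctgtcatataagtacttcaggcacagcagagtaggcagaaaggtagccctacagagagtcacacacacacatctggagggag
Cyp3a44: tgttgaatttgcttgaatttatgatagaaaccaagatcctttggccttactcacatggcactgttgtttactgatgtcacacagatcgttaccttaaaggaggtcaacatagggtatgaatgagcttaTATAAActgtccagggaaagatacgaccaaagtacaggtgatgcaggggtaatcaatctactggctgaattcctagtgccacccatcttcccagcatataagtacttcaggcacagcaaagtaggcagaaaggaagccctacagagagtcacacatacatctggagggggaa
Cyp3a11: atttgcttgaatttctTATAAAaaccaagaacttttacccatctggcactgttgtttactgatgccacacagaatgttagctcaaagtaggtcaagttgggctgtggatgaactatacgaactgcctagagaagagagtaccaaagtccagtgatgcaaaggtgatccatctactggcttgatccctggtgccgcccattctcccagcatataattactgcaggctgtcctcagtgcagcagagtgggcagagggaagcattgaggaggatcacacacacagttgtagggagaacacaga
Cyp3a59: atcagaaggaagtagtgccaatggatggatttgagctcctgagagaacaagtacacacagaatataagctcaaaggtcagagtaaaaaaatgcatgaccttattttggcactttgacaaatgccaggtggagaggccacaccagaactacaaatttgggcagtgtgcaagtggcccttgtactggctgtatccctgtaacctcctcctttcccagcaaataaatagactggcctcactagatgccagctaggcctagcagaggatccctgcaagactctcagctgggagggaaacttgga
Cyp3a13: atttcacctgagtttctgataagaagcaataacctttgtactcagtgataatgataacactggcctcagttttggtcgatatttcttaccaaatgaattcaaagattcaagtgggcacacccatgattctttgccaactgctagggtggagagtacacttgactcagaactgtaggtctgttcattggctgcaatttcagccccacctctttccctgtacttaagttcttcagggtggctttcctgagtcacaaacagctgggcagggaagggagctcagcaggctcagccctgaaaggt
TATAAA was searched on both strands and was present in 5 of the 10 promoter entries of the family (Cyp3a25 has a pair of entries), those of Cyp3a11, Cyp3a16, Cyp3a41a, Cyp3a41b, and Cyp3a44. Of all 32851 promoters, 13.6% held it. It began 122 bases before the start in Cyp3a41a, Cyp3a41b, and Cyp3a44, 126 bases before it in Cyp3a16, and 234 bases before it in Cyp3a11. The letters TTCNNNGAA, an element bound by STAT5, were in none of the 10 entries and in 8.3% of all promoters. The same search found no HNF1 element (0.00913% of all promoters), and no repeat of AGGTCA (0.00609%) or AGTTCA (0) with 3 bases between, nor TGAACT followed after 6 bases by AGTTCA (0.00609%), which are arrangements of nuclear receptor sites. A search for these letters in such a window says nothing about the factors.

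Cyp3a41a and Cyp3a41b are nearly the same gene to a short read. Over 2060 aligned bases of their transcripts, 2058 matched. The transcript of Cyp3a41b also has 4 bases more, placed after base 27 in the 5′ UTR. The substituted bases lie in coding sequence, in exon 2 (G207A) and in exon 5 (G423T), with Cyp3a41a first and the position counted from 1 at the 5′ end of its transcript. The stretches around the substitutions are shown because reads tell these genes apart only where they cover one of these differences, and the differing base is in capitals.
Cyp3a41a, exon 2 (chr5:145717956-145717984, minus strand): caggggattcctggGcccaaacctctgcc
Cyp3a41b, exon 2 (chr5:145582546-145582574, minus strand): caggggattcctggAcccaaacctctgcc
Cyp3a41a, exon 5 (chr5:145709127-145709155, minus strand): tttggcccagtgggGataatgagtaaagc
Cyp3a41b, exon 5 (chr5:145573713-145573741, minus strand): tttggcccagtgggTataatgagtaaagc
Of all windows of 100 bases in the transcript of Cyp3a41a, 90.8% occurred unchanged in another gene, and of those of Cyp3a41b 88.2%. The share was 6.05% for Cyp3a25, 5.61% for Cyp3a59, 5.37% for Cyp3a44, 0.312% for Cyp3a11, 0.123% for Cyp3a16, and 0 for Cyp3a13 and Cyp3a57. The split of reads between Cyp3a41a and Cyp3a41b is therefore uncertain throughout, and their sum is given beside the liver results.

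The liver held all 9 genes, and the order of their levels per length was led by Cyp3a11. Its mean was 2960 ± 417 TPM (SD, n = 4 liver libraries of both genotypes), followed by Cyp3a25 at 986 ± 250. Cyp3a44 (441 ± 286), Cyp3a41a (344 ± 211), and Cyp3a16 (309 ± 259) came next, and these neighbours differed by less than their spread. Cyp3a13 stood at 181 ± 21.7 TPM, Cyp3a59 at 105 TPM, Cyp3a41b at 77.1 ± 53.6 TPM, and Cyp3a57 at 0.395 TPM from 4 to 15 counts per library. Below Cyp3a25 the order of the means depended on the genotype, and in KO replicate 1 Cyp3a44 (845 TPM) was itself above Cyp3a25 (782.5 TPM). In WT liver the means were 248 ± 85.3 TPM for Cyp3a44, 198 ± 11.6 for Cyp3a13, 167 ± 191 for Cyp3a16, and 166 ± 43.6 for Cyp3a41a (SD, n = 2). By these means Cyp3a13 came before Cyp3a16 and Cyp3a41a, and in KO liver it came after both. For Cyp3a16 the WT order rested on WT replicate 2, with 31.5 TPM against 190 TPM for Cyp3a13. In WT replicate 1 Cyp3a16 (301 TPM) was above Cyp3a13 (207 TPM), as in both KO libraries. If reads that fit several places were left out, as the stored command implies, the levels of Cyp3a41a and Cyp3a41b are understated and their places in the order are uncertain. Cyp3a11 accounted for 68.1% to 83.3% of all Cyp3a counts in a liver library. Its deposited length of 5093 bases includes more than its coding transcript of 2344 bases, so that its level per length is understated. With the shorter length it stood at 3987 in place of 1835 CPM per kilobase in the liver, and it was highest either way.

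The small intestine held another set. Cyp3a13, a form found outside the liver, was at 1286 ± 999 TPM (SD, n = 4), Cyp3a11 at 789 ± 882, Cyp3a25 at 572 ± 334, and Cyp3a44 at 25.2 ± 40.1. These means join libraries that differed widely. Cyp3a13 was the highest of the family in TPM in each of the 4 libraries. Cyp3a11 was next in both replicate 2 libraries, at 1661 and 1437 TPM, where Cyp3a25 was at 894 and 827 TPM. In both replicate 1 libraries Cyp3a11 lay below Cyp3a25, at 31.2 and 26.04 against 267 and 300 TPM. In KO replicate 1 Cyp3a11 also lay below Cyp3a44, which was at 84.9 TPM. Every value of Cyp3a25 lay above every value of Cyp3a44. With the length of the coding transcript, Cyp3a11 came before Cyp3a13 in the replicate 2 libraries (1627 against 1073 CPM per kilobase in WT and 1319 against 797 in KO), and after it in those of replicate 1 (23.9 against 156 in WT and 19.5 against 150 in KO). Cyp3a59 had 41 to 91 counts in an intestine library, Cyp3a16, Cyp3a41a, and Cyp3a41b had 0 to 5, and Cyp3a57 had 0 in all 4 libraries.

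Cyp3a13 was thus the gene whose mean was higher in the intestine than in the liver. The liver mean was 0.141 times the intestine mean in TPM for Cyp3a13, against 3.75 times for Cyp3a11, 1.72 times for Cyp3a25, 17.5 times for Cyp3a44, and 41.8 times for Cyp3a59. Some ratios rested on 1 library: without KO replicate 1 of the intestine that of Cyp3a44 was 84.0, and without WT replicate 2 of the intestine that of Cyp3a11 was 5.94. Every Cyp3a13 value of the intestine (434 to 2380 TPM) lay above every value of the liver (157 to 207 TPM). For Cyp3a44 and Cyp3a59, and for Cyp3a11, every liver value was above every intestine value, while the ranges of Cyp3a25 overlapped. In bulk tissue, fewer cells of a type and less RNA per cell cannot be told apart. The 11 hepatocyte markers of a list had a median of at most 0.0621% of their liver level in an intestine library, although Apoa1, which enterocytes also make, was at 65.9% to 199%.

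**Figure D1:**
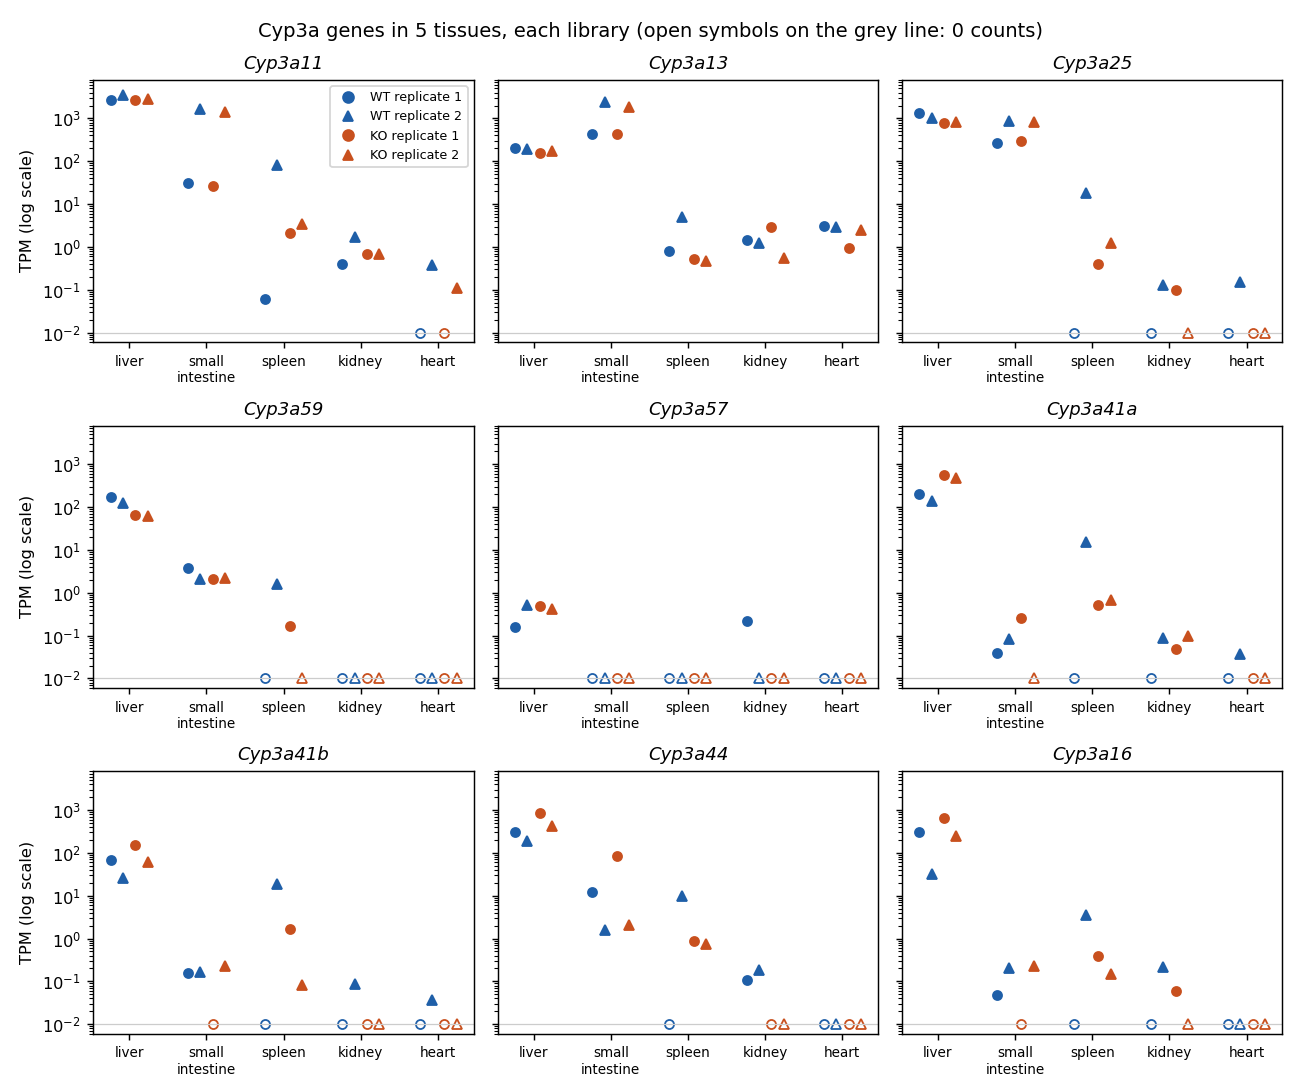
Level of each Cyp3a gene in TPM (log axis) in every library, by tissue, with color for genotype and shape for replicate number, and open symbols on the grey line for 0 counts. Cyp3a11 was highest in the liver (2692 to 3578 TPM), Cyp3a13 in the small intestine (434 to 2380 TPM), and the libraries of the small intestine and of the spleen differed widely among themselves.

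Outside these tissues, the levels were low. In the kidney, Cyp3a11 had 19 to 95 counts and Cyp3a13 had 16 to 86, and the other 7 genes had at most 4 counts in a library. In the heart, Cyp3a13 had 19 to 113 counts in each of the 4 libraries (2.38 ± 0.971 TPM, n = 4), and it was the single Cyp3a gene that was counted in all of them. In a fit of all 20 libraries with edgeR's quasi-likelihood test, 23159 genes were tested and a gene was called where its p, adjusted by Benjamini-Hochberg, was under 0.1 and its level changed by over 2 times. All 9 Cyp3a genes were called higher in the liver than in the kidney, against 13.6% of all genes, and 5 of 9 higher in the small intestine than in the kidney, against 23.2% of all genes. The 5 were Cyp3a11, Cyp3a13, Cyp3a25, Cyp3a44, and Cyp3a59. Since the liver and intestine libraries were among those on which the family was selected, nothing is read from these counts. Cyp3a59 had no count in any kidney library, and its lowest liver value was at least 650-fold higher than a floor of 3 counts in a kidney library.

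Within the small intestine, Cyp3a11, Cyp3a13, and Cyp3a25 differed by replicate number more than by genotype. Cyp3a11 stood at 55.9 CPM in WT replicate 1 and 3813 CPM in WT replicate 2, and at 45.8 CPM in KO replicate 1 and 3091 CPM in KO replicate 2. Replicate 2 was 68.2 times as high as replicate 1 in WT and 67.5 times in KO. Cyp3a13 and Cyp3a25 leaned the same way over a smaller range. Cyp3a13 was at 462 and 3172 CPM in WT replicates 1 and 2 and at 443 and 2356 CPM in KO. Cyp3a25 was at 195 and 840 CPM in WT and at 216 and 727 CPM in KO.

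Cyp3a44 went the other way. It was at 8.35 CPM in replicate 1 and 1.40 CPM in replicate 2 of WT, and at 57.5 and 1.71 CPM in KO, from 293, 36, 1588, and 42 counts. Replicate 1 was thus 5.95 times as high as replicate 2 in WT and 33.7 times in KO. In KO replicate 1, Cyp3a44 reached 19.2% of its mean level over the 4 liver libraries, while the hepatocyte markers had a median of 0.00772% of theirs and Cyp3a41a and Cyp3a16 had 5 and 0 counts. Here the genotypes were also apart in replicate 1, where KO lay above WT by 2.78 on the log2 scale. Cyp3a59 was at 2.59 and 1.87 CPM in WT and at 1.48 and 1.83 CPM in KO, and its widest gap was between the genotypes in replicate 1.

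Markers of intestinal segments moved with the replicate number. A list of 8 genes of the proximal intestine summed to 161 CPM in WT replicate 1 and 228 CPM in KO replicate 1, against 9954 and 11512 CPM in replicate 2. Fabp1, a fatty acid binding protein, was the most abundant of them in replicate 2, and Pdx1 had no count in either replicate 1 library. A list of 9 genes of the distal intestine summed to 11387 and 13190 CPM in replicate 1, against 446 and 580 CPM in replicate 2. Fabp6, the bile acid binding protein of the ileum, led it in replicate 1, and Fgf15 was at 0 in both replicate 2 libraries. Enterocyte markers were present throughout, with a sum of 18961 to 31693 CPM. Cyp3a11, Cyp3a13, and Cyp3a25 were thus high where proximal markers were high, and Cyp3a44 was higher where distal markers were high. The replicate 1 libraries also differed from each other in markers of other tissues. The 6 spleen markers summed to 329 CPM in WT replicate 1, led by Ms4a1 of B cells, and to 3.04 CPM in KO replicate 1. The 5 heart markers summed to 5.56 CPM in WT replicate 1 and to 335 CPM in KO replicate 1, led by the myosin light chain Myl2. The part of the segments and of these other markers in the Cyp3a differences was not tested.

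**Figure D2:**
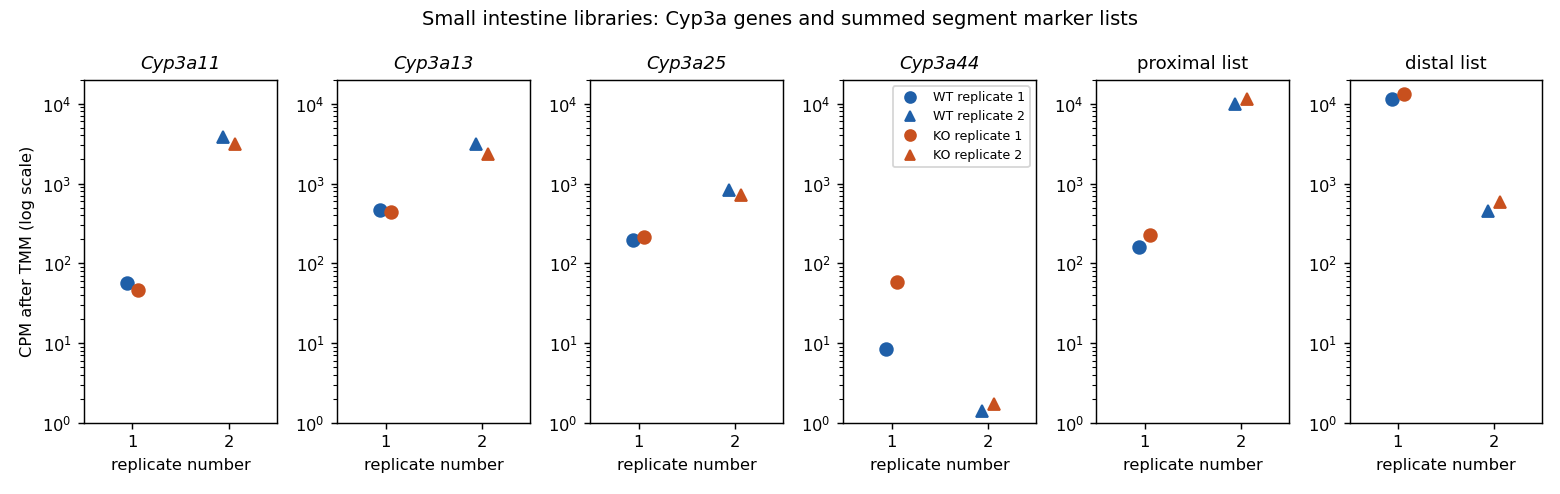
CPM (log axis) of 4 Cyp3a genes and the summed CPM of the proximal and distal marker lists in the small intestine, by replicate number, with color for genotype. Cyp3a11, Cyp3a13, and Cyp3a25 were higher in replicate 2, as was the proximal list, and Cyp3a44 was higher in replicate 1, as was the distal list.

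No Cyp3a gene was called between KO and WT small intestine. With edgeR's quasi-likelihood test within the tissue, 5 of the 9 genes passed the filter on low counts and 0 were called, beside 0% of 17680 genes tested. At an unadjusted p under 0.05 there were 422 genes and none of the 5. DESeq2 called none of the 5 either, against 0.343% of 14882 genes. The log2 fold changes were -0.33 (SE 2.38) for Cyp3a11, -0.41 (SE 1.27) for Cyp3a13, -0.17 (SE 0.97) for Cyp3a25, 2.51 (SE 1.75) for Cyp3a44, and -0.48 (SE 0.56) for Cyp3a59, with an adjusted p of 0.9999 in edgeR for each. The standard errors take in the gap between the replicate numbers. Between libraries of 1 number, KO differed from WT by -0.29 and -0.30 for Cyp3a11 on the log2 scale, -0.06 and -0.43 for Cyp3a13, and 0.14 and -0.21 for Cyp3a25. For Cyp3a44 the values were 2.78 in replicate 1 and 0.28 in replicate 2, and for Cyp3a59 they were -0.81 and -0.033.

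In the liver, the genotypes differed most in the group of Cyp3a16, Cyp3a41a, Cyp3a41b, and Cyp3a44. Cyp3a41a, on which the family was selected, was at 204 and 183 CPM in WT and at 750 and 649 CPM in KO, a log2 fold change of 1.87 (SE 0.22). Cyp3a44 was at 305 and 242 CPM in WT and at 1060 and 552 CPM in KO, a log2 fold change of 1.58 (SE 0.34). Both KO libraries lay above both WT libraries for each of these genes.

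The other members of the group were more uneven. Cyp3a41b stood at 70.9 and 34.9 CPM in WT and at 201 and 85.2 CPM in KO (log2 fold change 1.46, SE 0.54). Cyp3a16 was at 263 and 35.9 CPM in WT and at 725 and 283 CPM in KO (log2 fold change 1.79, SE 1.09). In CPM the KO libraries were again above the WT libraries, but for Cyp3a16 KO replicate 2 and WT replicate 1 nearly met. The WT libraries of Cyp3a16 were further apart, as a ratio, than those of any other Cyp3a gene in the liver. In TPM the genotypes overlapped, with KO replicate 2 below WT replicate 1 for Cyp3a16 (246.5 against 301 TPM) and Cyp3a41b (62.2 against 68.1 TPM). Summed over Cyp3a41a and Cyp3a41b, which removes the uncertain split, the level was 275 and 218 CPM in WT and 951 and 735 CPM in KO, and the log2 fold change was 1.79 (SE 0.25). The 4 genes together made 669 ± 246 CPM in WT and 2153 ± 825 CPM in KO (SD, n = 2).

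In the group of Cyp3a25, Cyp3a57, and Cyp3a59, 2 genes had lower values in KO. Cyp3a59 was at 173 and 161 CPM in WT and at 83.7 and 82.7 CPM in KO, a log2 fold change of -0.996 (SE 0.18). Cyp3a25, which is also expressed in the intestine, was at 1398 and 1383 CPM in WT and at 1041 and 1135 CPM in KO (log2 fold change -0.35, SE 0.23). For both genes the genotypes did not overlap, with KO below WT. Cyp3a57 was counted 4 and 13 times in WT libraries and 13 and 15 times in those of KO, too few for a comparison.

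For Cyp3a11 and Cyp3a13 the genotypes overlapped in CPM. In TPM, Cyp3a13 did not overlap, at 206.6 and 190.1 in WT and 156.8 and 171.6 in KO. Cyp3a11 was at 6914 and 11986 CPM in WT and at 8882 and 9598 CPM in KO, so that both KO libraries fell between the WT libraries (log2 fold change -0.03, SE 0.36). Cyp3a13 was at 308 and 370 CPM in WT and at 296 and 337 CPM in KO (log2 fold change -0.09, SE 0.21). In CPM, Cyp3a11 made up most of the total. The sum of the 9 genes was 12015 ± 3366 CPM in WT and 12881 ± 224 CPM in KO (SD, n = 2). In TPM the share of Cyp3a11 was lower, with 2730 of a sum of 5959 TPM in KO replicate 1.

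**Figure D3:**
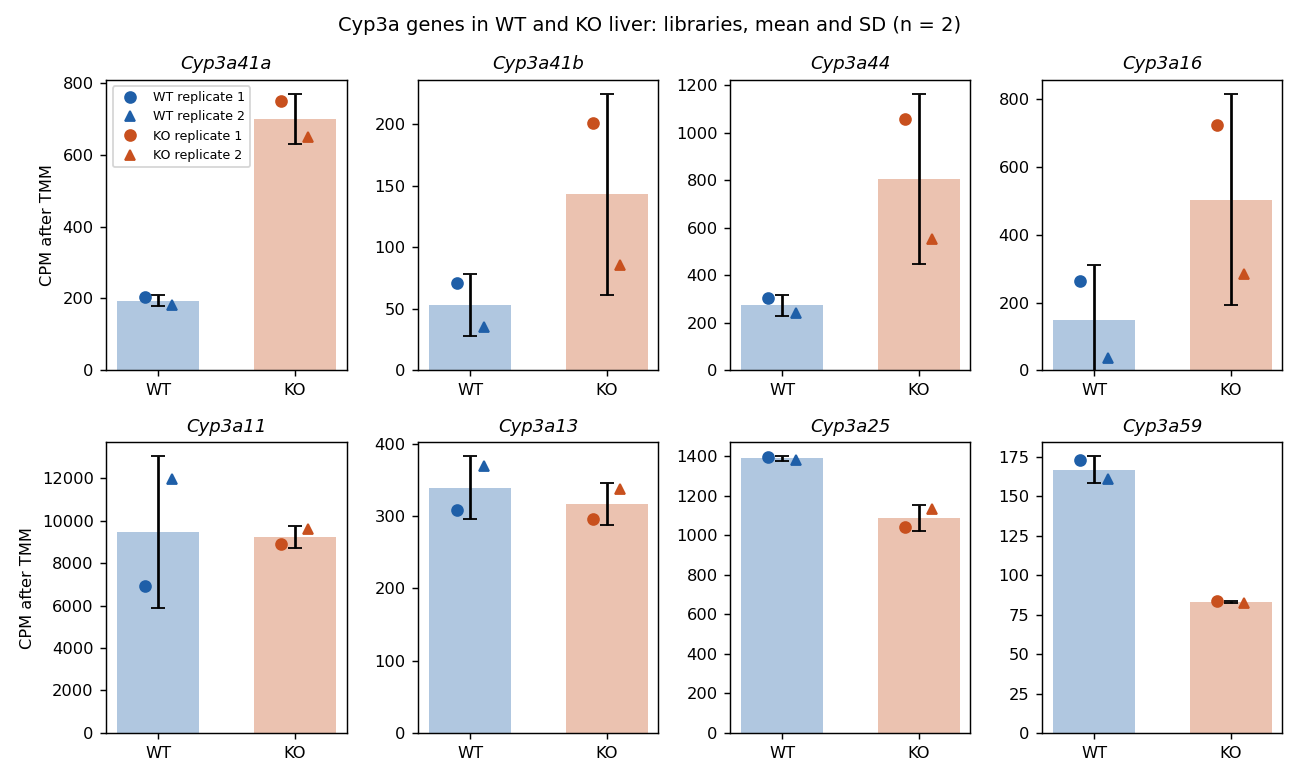
CPM of 8 Cyp3a genes in WT and KO liver on linear axes that start at 0, with points for libraries and bars for the mean and SD of 2 libraries (the lower error bar of Cyp3a16 in WT is cut at 0). Cyp3a41a, Cyp3a41b, Cyp3a44, and Cyp3a16 were higher in KO, Cyp3a59 and Cyp3a25 lower, and Cyp3a11 and Cyp3a13 overlapped.

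Counted over the family in CPM, 4 of the 9 genes had both KO libraries above both WT libraries, against 16.2% of the 15729 genes tested in the liver. They were Cyp3a16, Cyp3a41a, Cyp3a41b, and Cyp3a44. For Cyp3a25 and Cyp3a59 both KO libraries lay below, against 16.9% of all genes tested. These counts depend on the scaling. In TPM the genotypes overlapped for Cyp3a16 and Cyp3a41b, while both KO libraries also lay below for Cyp3a13. The median log2 fold change of the 9 genes was 0.51, and that of all genes tested was 0.00. The former is the value of Cyp3a57, the gene with too few counts, and the other 8 split into 4 at -0.03 or below and 4 at 1.46 or above. At the thresholds given above, 1 of the 9 genes was called, Cyp3a41a, against 0.0509% of all genes tested. This contrast was used to select the family, and nothing is read from these counts. With the counts of Cyp3a41a and Cyp3a41b summed, with limma on TPM, or in the fit of all 20 libraries, Cyp3a41a was not called. Nor was it called without KO replicate 1 or KO replicate 2.

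Along the cluster, the genes with higher levels in KO lay next to each other. Cyp3a16, Cyp3a41b, Cyp3a41a, and Cyp3a44 start between 91.03 and 428.7 kb from the left end of Cyp3a57, followed by Cyp3a11 at 509.15 kb, Cyp3a25 at 631.92 kb, and Cyp3a59 at 733.98 kb. Position and promoter group go together here, since 4 neighbouring genes make up the first group, and they cannot be told apart. By transcript, the next gene, Cyp3a11, is not set apart from that group.

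**Figure D4:**
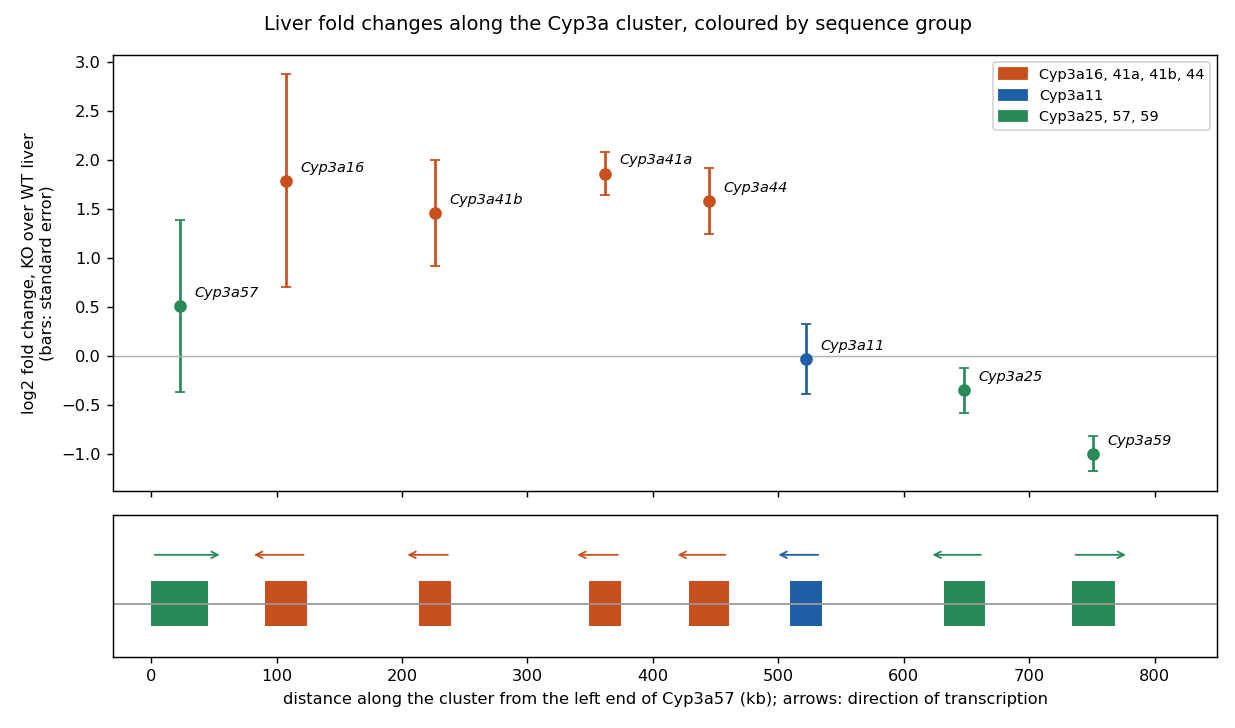
Top, log2 fold change of KO over WT liver with its standard error for the 8 clustered genes, at their distance in kb from the left end of Cyp3a57. Bottom, the extent and direction of each gene, with color for the sequence group, where Cyp3a11 is set apart by its promoter and not by its transcript. The 4 genes of the group of Cyp3a41a have log2 fold changes of 1.46 to 1.87, and Cyp3a11, Cyp3a25, and Cyp3a59 to their right -0.03, -0.35, and -0.996.

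The ratio between members also varied among the liver libraries. Counts of Cyp3a41a were 2.88 and 5.24 times those of Cyp3a41b in WT and 3.73 and 7.62 times in KO. Counts of Cyp3a16 were 1.29 and 0.196 times those of Cyp3a41a in WT and 0.967 and 0.436 times in KO. In both genotypes, replicate 1 had more Cyp3a41b and more Cyp3a16 for its Cyp3a41a than replicate 2 had.

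The liver libraries carried the markers of their tissue. All 11 hepatocyte markers were counted in each, and Alb, the most abundant, stood at 152914 and 310050 CPM in WT and 272495 and 264889 CPM in KO. WT replicate 1 was low for it. All 11 had a positive log2 fold change, with a median of 0.27, and none was called. Kupffer cell markers summed to 423 and 514 CPM in WT and 575 and 472 CPM in KO. Markers of bile duct cells summed to 59.6 and 80.1 CPM in WT and 55.9 and 77.9 CPM in KO. Heart markers, at low levels, did not overlap between the genotypes. They summed to 22.6 and 3.68 CPM in WT, where WT replicate 1 stood apart with Myl2 the most abundant, and to 1.0 and 0.952 CPM in KO, and the 3 that were tested had lower means in KO (median log2 fold change -3.63) with none called. The part of these differences in the Cyp3a values was not tested.

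Factors that act on Cyp3a transcription were examined in the same livers. Of a list of 20 regulators, 19 were tested, 13 had a higher mean in KO and 6 a lower one, and Cux2 alone was called, against 0.0509% of all genes tested, with a median log2 fold change of 0.07. PXR (Nr1i2) was at 98.2 and 139 CPM in WT and 97.9 and 150 CPM in KO (log2 fold change 0.06, SE 0.25). CAR (Nr1i3) had a log2 fold change of 0.07 (SE 0.20), and Hnf4a one of 0.11 (SE 0.29). Cux2, a female-biased repressor of male-biased liver genes, was at 19.4 and 23.1 CPM in WT and 55.3 and 72.4 CPM in KO (log2 fold change 1.59, SE 0.21). Of the 5 genes of electron transfer to P450 enzymes none was called, and Por itself had a log2 fold change of -0.38 (SE 0.28).

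Target genes of PXR and CAR outside the Cyp3a family mostly had lower means in KO. Of 18 targets tested, 4 had a higher and 14 a lower mean in KO liver, with a median log2 fold change of -0.29 and none called. Cyp2c37, a P450 enzyme, was highest at 0.60 (SE 0.27), and Gsta1, a glutathione transferase, was lowest at -2.25 (SE 0.87). The value of Gsta1 rested on WT replicate 1, as it was at 4.23 and 0.579 CPM in WT and 0.524 and 0.476 CPM in KO.

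Genes with a sex bias in the liver were listed because the group of Cyp3a41a and Cyp3a44 is among them. Of 22 other female-biased genes, 15 had a higher and 7 a lower mean in KO, with a median of 0.30, and 3 were called, against 0.0509% of all genes tested. The list was drawn up with earlier results of these data known. These were the plasma protein gene A1bg (log2 fold change 3.70, SE 0.22) and the sulfotransferases Sult3a2 (4.40, SE 0.35) and Sult3a1 (2.41, SE 0.22). A1bg was at 21.1 and 25.7 CPM in WT and 287 and 318 CPM in KO. Summed, the list stood at 9118 and 5518 CPM in WT and 9267 and 7381 CPM in KO, so that the genotypes overlapped. Of 18 male-biased genes, 16 were tested, 11 with a higher and 5 with a lower mean, a median of 0.20, and none called. Hsd3b5 was highest at 1.37 (SE 1.31) and Cyp2d9 lowest at -1.37 (SE 0.83). In each, the WT libraries differed widely. Hsd3b5 was at 1.58 and 33.5 CPM in WT and 38.2 and 52.5 CPM in KO. Cyp2d9 was at 32.4 and 160 CPM in WT and 29.5 and 45.4 CPM in KO. Summed, the male-biased list stood at 2583 and 5086 CPM in WT and 4211 and 5084 CPM in KO, with WT replicate 1 apart.

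Genes of the zones of the liver lobule were set beside these, as Cyp3a11 is known from the zone around the central vein. Of 9 pericentral genes, 1 had a higher and 8 a lower mean in KO (median -0.38), and of 7 periportal genes 3 were higher and 4 lower (median -0.09). None of either list was called. The pericentral gene with the highest value was Oat at 0.15 (SE 0.31), and Cyp1a2 was the lowest at -1.09 (SE 0.20). Among the periportal genes, Pck1 was highest at 0.14 (SE 0.36) and Ass1 lowest at -0.42 (SE 0.25).

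In the spleen, where B cell markers such as Cd79b were abundant in all 4 libraries, Cyp3a genes were highest in the library with the most hepatocyte RNA. The 11 hepatocyte markers summed to 8.35 CPM in WT replicate 1, 3570 CPM in WT replicate 2, 128 CPM in KO replicate 1, and 181 CPM in KO replicate 2, with Alb the most abundant. Their median was 0.0147%, 3.27%, 0.102%, and 0.173% of the liver level, the mean over the 4 liver libraries in TPM, in the same order. Cyp3a11 had 4 counts in WT replicate 1 and stood at 2.81% of its liver level in WT replicate 2, 0.0727% in KO replicate 1, and 0.114% in KO replicate 2. WT replicate 2 was thus the high library for both. Between the KO libraries the genes went both ways. Cyp3a11, Cyp3a25, and Cyp3a41a were at a higher percent in KO replicate 2 than in KO replicate 1, as was the hepatocyte median. Cyp3a13, Cyp3a16, Cyp3a41b, Cyp3a44, and Cyp3a59 were at a lower one.

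In WT replicate 2, the 11 hepatocyte markers ranged from 2.41% to 4.92% of their liver level. Cyp3a11 and Cyp3a13 (2.81% each) and Cyp3a41a (4.52%) were within that range. Cyp3a44, Cyp3a25, Cyp3a59, and Cyp3a16 were below it, at 2.20%, 1.81%, 1.51%, and 1.13%, and Cyp3a41b was above it. This placing depends on the reference for 2 genes. Against the WT livers alone, where the markers ranged from 2.39% to 5.10%, Cyp3a41a stood above the range at 9.39% and Cyp3a44 within it at 3.92%, and the other 6 were placed as before. Against all 4 livers, Cyp3a41b was at 25% of its liver level there and at 2.12% in KO replicate 1. In counts, Cyp3a41b exceeded Cyp3a41a in both of these libraries, with 388 against 313 and 41 against 13, while in every liver library it was the lower of the pair. Cyp3a13 was counted 31 times in WT replicate 1, the library with the lowest hepatocyte sum, at 0.442% of its liver level.

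**Figure D5:**
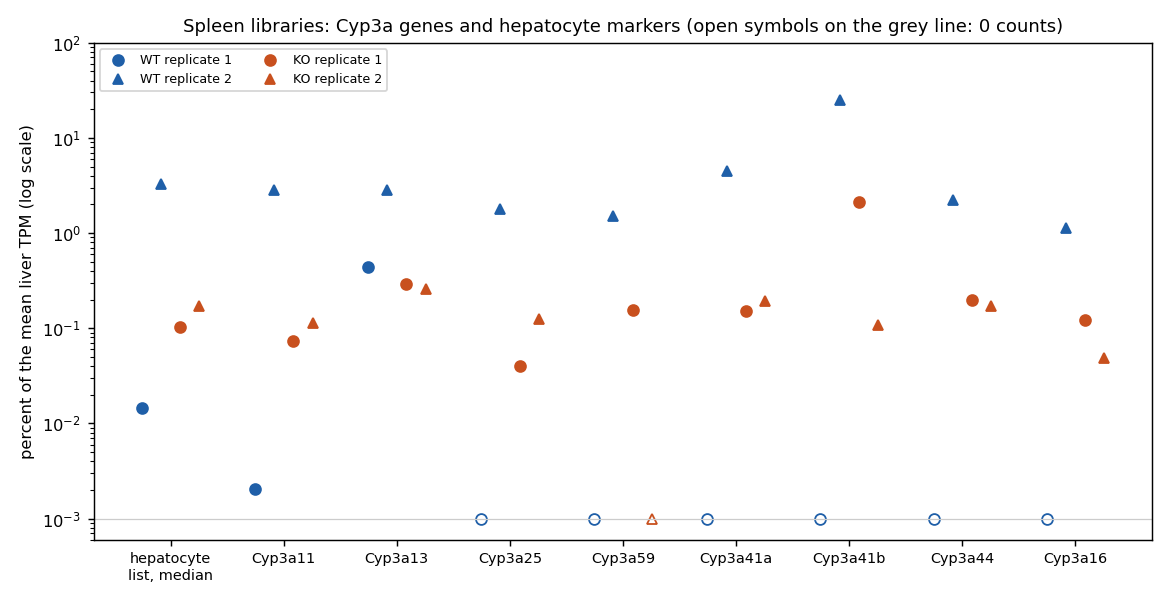
Level of 8 Cyp3a genes in each spleen library as a percent of the mean liver TPM (log axis), beside the median of 11 hepatocyte markers, with open symbols for 0 counts. WT replicate 2 is high for all of them, with 3.27% for the hepatocyte median and 25% for Cyp3a41b.

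Between genotypes, 6 of the 9 genes were tested in the spleen and none was called, against 0.223% of 18834 genes tested. Of the 6, Cyp3a13 alone had an unadjusted p under 0.05 in edgeR's quasi-likelihood test, at 0.0364, as had 969 of all 18834 genes tested. In the same test its adjusted p was 0.875, with a log2 fold change of -2.43 (SE 0.90). Cyp3a13 was at 0.596 CPM in WT replicate 1, 3.86 CPM in WT replicate 2, and 0.376 to 0.434 CPM in KO, so that its value rested largely on WT replicate 2. DESeq2 called none. For Cyp3a11 the log2 fold change was -3.79 (SE 3.35), and it was 5.68 without WT replicate 2, the library with the hepatocyte genes. Without this library 1 Cyp3a gene was called, against 1.35% of all genes tested. Without WT replicate 1, the library with the lowest hepatocyte sum, 6 were called, against 1.86% of all genes tested.

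In the kidney, where 2 genes were tested, and in the heart, where 1 was tested, none was called, beside 0% of 17550 genes in the kidney and 0% of 16632 genes in the heart. In the kidney the log2 fold change was -0.87 (SE 0.95) for Cyp3a11 and 0.34 (SE 0.87) for Cyp3a13, and in the heart it was -0.86 (SE 0.50) for Cyp3a13. The lowest unadjusted p of the 3 tests, by edgeR's quasi-likelihood test, was 0.127, for Cyp3a13 in the heart. DESeq2 called no Cyp3a gene in either tissue, beside 0% of 28514 genes in the kidney and 0.0107% of 27983 genes in the heart. Kidney markers summed to 5459 to 8538 CPM in the kidney libraries and heart markers to 48368 to 69018 CPM in those of the heart.

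Across the 20 libraries, the genes whose level was most like that of a Cyp3a gene were found by ranking 16372 genes by Pearson's r of log2 CPM. The libraries share tissues, so that r reflects mostly the differences between tissues, and it is given as a description. For Cyp3a11 they were Cyp2c68 (0.983), Fabp1 (0.978), and Rdh7 (0.977). For Cyp3a13 they were Rhou (0.974), Tm4sf4 (0.970), and Gstm3 (0.968). Cyp3a25 was most like Otc (0.989), Ugt2b35 (0.989), and Creb3l3 (0.988), and Cyp3a41a was most like Apoa5 (0.991), Mug-ps1 (0.990), and Apoc4 (0.989).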

How the data were processed

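RNA-seq counts of 20 libraries were analysed, with groups of tissue and genotype, and replicate numbers, as the labels give them. The authors trimmed reads with cutadapt, mapped them with HISAT2 2.1.0 to mm10, and counted them with featureCounts 2.0.1 on Ensembl exons of GRCm38. They deposited raw counts per gene without normalization and the merged exon length of each gene in base pairs (a length, other than a measured value). The command stored with the counts holds no option for strand, read pairs, or reads with several hits, whereas the methods state strand and pair options. Reads that fit several places would be left out under that command, which touches Cyp3a41a and Cyp3a41b most. Counts of mates are not independent molecules.

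The counts were fitted in R 4.3.3 by edgeR 4.0.16 with TMM normalization, filterByExpr, and the robust quasi-likelihood test within each tissue, and with all 20 libraries for comparisons with the kidney. As in the methods, a gene was called with an adjusted p under 0.1 where its change exceeded 2 times. SE was derived from the log2 fold change and its F statistic (change over root F). TPM was computed from counts and merged exon lengths. Biopython 1.88 in Python 3.11.15 aligned transcripts of GENCODE, and matplotlib 3.10.9 drew the plots. The fits were tested on simulated data, where the fit of the small intestine found few changes of moderate size. A fitted interaction of tissue and genotype outside the liver was not used, since it takes in the small intestine libraries on which the family was selected. The alternatives were DESeq2 1.42.0, its size factors, no filter on low counts, limma 3.58.1 on log2(TPM + 0.1) for genes with a TPM over 1, other sets of libraries, the replicate number as a block, and each library left out. Summed counts of Cyp3a41a and Cyp3a41b, the coding transcript length, WT liver alone as the reference for the spleen, and ratios of liver to intestine without each library were added after seeing the data.

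The members and the gene lists were chosen with earlier results of these data known. Named were all 9 Cyp3a genes, Nr1i2, Nr1i3, Hnf4a, Por, called genes of each list or otherwise its highest and lowest, the most abundant marker, and the 3 most alike genes of Cyp3a11, Cyp3a13, Cyp3a25, and Cyp3a41a. Apoa1, Pdx1, and Fgf15 were named after their values were seen. No pair of libraries in a group agreed within sampling noise, as 1 library deposited again would.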

Additional observations from a re-analysis of the deposited data

How the results depend on the processing

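In the liver, 1 Cyp3a gene was called in the main analysis (0.0509% of all genes tested), 3 with DESeq2 (0.356%), 3 with no filter on low counts (0.477%), 0 with limma on TPM (0.02%), 2 with the replicate block (0.127%), 0 in the fit of all 20 libraries (0%), and 0 to 2 with 1 library left out (0 without either KO library, 2 without WT replicate 2, where 1.16% of all genes were called). The family was selected on this contrast, so these counts say nothing of its stability. A library left alone in its group was assumed to vary like the other group. In the spleen the count was 0, with 1 under no filter (1.04% of all genes tested) and 0 to 6 with a library left out. In the kidney it was 0, and 0 to 1 with a library left out (1 without WT replicate 1, 16.1% of all genes tested). No alternative changed the count of 0 in the small intestine or the heart. With both libraries in each group, the highest share of all genes called was 0.343% in the small intestine (DESeq2) and 0.0465% in the heart (no filter). The counts against the kidney stayed within 1.5 times. In the liver, 8 genes in place of 9 were called higher with DESeq2 (13.7% of all genes) and with limma on TPM (7.49%). In the small intestine, 6 in place of 5 were called higher with no filter (15.2%). Nothing is read from these counts.

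Some log2 fold changes changed sign. In the small intestine, Cyp3a25 was at 0.027 with limma on TPM. With 1 library left out, the values ran from -5.52 to 4.79 for Cyp3a11, -2.16 to 1.57 for Cyp3a13, -1.39 to 1.23 for Cyp3a25, and -1.53 to 4.31 for Cyp3a44. In the liver, Cyp3a11 was at 0.029 with the replicate block, and leaving out 1 library gave -0.39 to 0.45 for Cyp3a11, -0.245 to 0.070 for Cyp3a13, and -0.25 to 1.88 for Cyp3a57. In the spleen the ranges were -4.80 to 5.68 for Cyp3a11, -4.36 to 7.48 for Cyp3a25, -4.59 to 6.997 for Cyp3a41a, -6.65 to 7.52 for Cyp3a41b, and -3.46 to 7.38 for Cyp3a44, in each case positive without WT replicate 2. In the kidney, Cyp3a13 was at -0.030 with limma on TPM, -0.047 with the replicate block, and -1.32 to 1.12 with a library left out, and Cyp3a11 at -1.69 to 1.13. For the small intestine against the kidney, both at most 5 counts, the signs of Cyp3a16 (-1.03 to 3.22) and Cyp3a41a (-1.65 to 2.30) also turned. The cause was not tested. The values of Cyp3a41a, Cyp3a41b, Cyp3a44, Cyp3a16, Cyp3a25, and Cyp3a59 in the liver kept their sign under every alternative. Their WT and KO liver libraries did not overlap in CPM, so leaving out 1 library could hardly turn a sign. The family was also selected on this contrast, and nothing is read from the kept signs.

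Same-numbered WT and KO libraries deviated together in the small intestine (r = 0.568 across genes) and the heart (0.363), less in the kidney (0.123), and hardly in the liver (0.0383) and spleen (0.00503). The labels tie no number to an animal or a day, so the number was not taken as a pairing, although same-numbered small intestine libraries had segment markers in common. With the replicate number as a block, the log2 fold changes in the small intestine were -0.35 (SE 0.27) for Cyp3a11, -0.30 (SE 0.28) for Cyp3a13, -0.087 (SE 0.23) for Cyp3a25, 1.58 (SE 0.70) for Cyp3a44, and -0.48 (SE 0.55) for Cyp3a59, and no gene of the table was called.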

Other observations

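The count table holds a pair of Cyp3a pseudogenes. Cyp3a63-ps, chosen after its values were seen, was counted 264 and 77 times in WT liver and 273 and 309 times in KO liver, at most 15 in a spleen library, and 2 in the 4 small intestine libraries together. It shared 48 windows of 100 bases with the transcript of Cyp3a44, so reads of up to 100 bases from there cannot be told apart. Of the 1813 windows of 150 bases of Cyp3a44, 0 occurred in another gene. Cyp3a61-ps1 had at most 2 counts in a library.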
